A study of Homo sapiens with 24 samples.

Results

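The BCL2 family decides whether the mitochondrial route of apoptosis is opened, and 10 of its genes, taken by symbol from the 59251 genes of the count table, are described here: the survival genes BCL2, BCL2L1, MCL1 and BCL2A1, the pore-forming gene BAK1, and the BH3-only genes BCL2L11, BMF, BIK, BID and BAD. All 10 symbols had a row. Of these genes, 9 passed the filter on low counts and could be tested among 20820 genes, and BCL2A1 did not. RNA was measured in MCF10A, an established line of human breast epithelial cells. Cells called PE are non-transformed and cells called PM are transformed by MYC, an oncogenic transcription factor. Each line carried a hairpin against GFP as the control, or hairpin A or hairpin B against CHD1, a chromatin remodeller, which makes 6 groups of 4 libraries labelled as biological replicates. All 6 groups, controls included, received doxycycline at 50 ng/ml for 72 h, and the RNA was selected by its poly(A) tail. The labels do not say whether PE and PM are single clones, and what separates the replicates beyond the word biological is not stated, so each p-value speaks to the spread among these libraries alone.

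In the background biology, the survival proteins hold the pore formers BAK1 and BAX in check at the outer mitochondrial membrane. BH3-only proteins relay stress or death receptor signals by binding the survival proteins in a groove, and some of them also switch the pore formers on. When the pore formers assemble, cytochrome c leaves the mitochondria and caspases are activated. In breast epithelium the family is known for the death of cells that lose their attachment and for the survival of cells in which MYC is active.

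Member proteins meet through the BH3 stretch, a short helix built around a leucine codon, any 3 codons, a small residue and an aspartate codon. The coding sequences of the annotated transcripts (GENCODE release 29, GRCh38) were searched for a leucine codon, 3 free codons, a glycine codon and an aspartate codon, which 7 of the 10 members held. A looser form with alanine or serine in place of glycine was the one form found in BMF and BAD, and neither form was found in the coding sequence of BCL2A1. For comparison, 13.8% of 19510 protein-coding genes held the glycine form and 35% held either form, so a match alone is a description. The stretches of 48 coding bases are shown for the 9 members with a match because this is the element the family shares. Capitals mark the 6 codons of the pattern.
MCL1: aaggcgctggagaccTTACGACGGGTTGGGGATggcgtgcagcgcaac
BCL2L1: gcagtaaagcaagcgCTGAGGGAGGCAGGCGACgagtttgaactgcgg
BCL2: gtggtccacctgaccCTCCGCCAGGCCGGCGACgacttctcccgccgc
BAK1: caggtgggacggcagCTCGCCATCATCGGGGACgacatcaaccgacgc
BCL2L11: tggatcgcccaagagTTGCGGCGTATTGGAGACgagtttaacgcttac
BID: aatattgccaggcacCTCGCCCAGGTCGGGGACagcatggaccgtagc
BIK: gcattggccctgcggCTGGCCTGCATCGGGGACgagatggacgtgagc
BMF: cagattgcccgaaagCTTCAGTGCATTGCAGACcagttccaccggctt
BAD: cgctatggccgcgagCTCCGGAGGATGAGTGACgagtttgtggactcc

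These stretches are exonic and coding, and none of them spans an intron. On GRCh38 they lie at chr1:150578862-150578909 for MCL1, chr20:31721919-31721966 for BCL2L1, chr18:63318346-63318393 for BCL2 and chr6:33575384-33575431 for BAK1, all on the minus strand. The BH3-only stretches lie at chr2:111150088-111150135 for BCL2L11 and chr22:43127701-43127748 for BIK on the plus strand. On the minus strand are those of BID at chr22:17739412-17739459, BMF at chr15:40104192-40104239 and BAD at chr11:64271619-64271666. BID held a further match of the looser form at codons 66 to 81 of its 241 codons, which is not shown.

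Libraries held between 4.14 and 93.3 M counts with a median of 49.5 M, so 1 CPM (1 count per M counts, scaled by TMM) stood for about 4.14 to 93.3 counts. CHD1 averaged 78.8 ± 5.53 CPM (SD, n = 4) in PE under the GFP hairpin, 29.2 ± 1.20 under hairpin A and 28.1 ± 3.07 under hairpin B. In PM the CHD1 levels were 90.0 ± 5.18, 31.04 ± 2.76 and 29.5 ± 5.40 CPM. CHD1 did not pass the test between the hairpins, with a B against A difference of -0.06 (log2, 95% interval -0.25 to 0.13) in PE and -0.08 (-0.27 to 0.12) in PM. MYC averaged 518 ± 27.4 CPM in PM and 275.0 ± 17.7 CPM in PE under the GFP hairpin. In the libraries of PM with hairpin B, MYC stood at 392 ± 12.3 CPM, which was 0.40 lower on the log2 scale than under the GFP hairpin (adjusted p = 3.58e-06). The epithelial markers each had a count in every group, with summed levels of 1146 to 2264 CPM per library. Of these 8 markers, 3 averaged under 1 CPM in PE with hairpin B and 1 did in each other group. In PE with hairpin B, 6 were lower and 1 higher than with the GFP hairpin (median log2 change -3.02), where 26.8% of all genes passed. Of the immune markers, 5 of 8 averaged under 1 CPM in every group, with CD3E, MS4A1 and LYZ at 0 or near it (list sums of 39.3 to 87.6 CPM, carried by CD68, CD14 and CSF1R). Of the 9 fibroblast and endothelial markers, 4 to 6 averaged under 1 CPM (list sums of 16.1 to 72.0 CPM). Among the epithelial markers, KRT17, CDH1 and EPCAM fell under both hairpins in PE (mean log2 changes of -3.71, -3.51 and -1.25), and KRT8 rose (0.67). KRT17 and KRT14 fell in PM (-2.35 and -2.16), and the part of these shifts in the results below was not tested. Libraries that stand apart were PE replicate 1 with the GFP hairpin (the smallest total, 18380 genes detected), PM replicate 4 with hairpin A (19514 genes detected) and PM replicate 3 with hairpin B (33137 genes detected). In such bulk RNA, fewer cells with a transcript and less transcript per cell cannot be told apart.

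MCL1 was the most abundant member per kilobase in all 6 groups. Its mean level in CPM per kb of exon was 194 ± 13.0 with the GFP hairpin in PE, 162 ± 8.39 under hairpin A and 149 ± 6.69 under hairpin B. In PM it was 168 ± 12.3, 103.5 ± 1.73 and 169 ± 20.5. As a share of the members' summed CPM per kb, MCL1 made up 70.4% ± 2.89 in PE with the GFP hairpin and 57.2% ± 0.597 in PM with hairpin A, the highest and the lowest group mean. BCL2L1, BAK1, BAD and BID formed a middle tier between 12.7 and 36.5 CPM per kb in group means. Within that tier the order changed with the hairpin. BAK1 (23.6 CPM per kb) and BCL2L1 (22.8) overlapped in PE with the GFP hairpin. With hairpin B in PE, BCL2L1 stood next to MCL1 at 36.5 CPM per kb, while BAK1, at 15.4, ranked below BAD (19.3) and overlapped BID (15.6). BCL2L11 and BIK came next, between 0.865 and 3.69 CPM per kb, and in PM with the GFP hairpin and with hairpin A their libraries overlapped. BCL2 lay between 0.309 and 0.459 CPM per kb, and BMF and BCL2A1 were the least abundant at 0.280 or less. The libraries of BMF and BCL2A1 overlapped in every group.

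**Figure D1:**
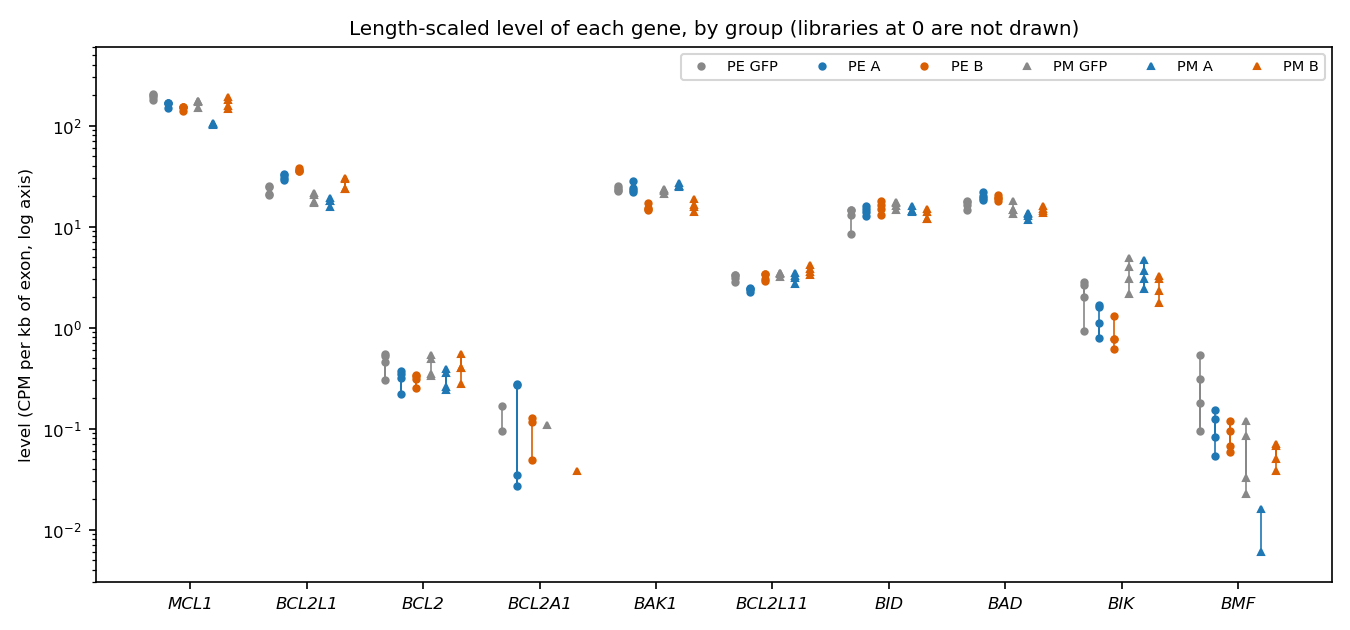
Abundance of each gene in CPM per kb of exon (log axis), with 1 point per library and a vertical line spanning the libraries of a group; circles are PE and triangles PM, grey the GFP hairpin, blue hairpin A and orange hairpin B, and libraries at 0 are not drawn. MCL1 lies above all other members in each group, and BCL2A1 in PM with hairpin A has no point because all its libraries were at 0.

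In PE, each CHD1 hairpin was followed by more BCL2L1 RNA and less MCL1 RNA, and those were the 2 of 9 tested members that passed in 1 direction under hairpin A and hairpin B alike (12.3% of all tested genes did). In PM, no member passed under both hairpins in edgeR's test (0 of 9, against 13.3% of all genes), by DESeq2 or by limma-voom. At an unadjusted p under 0.05 in edgeR's test, 0 members did so in PM and 5 in PE (BCL2, BCL2L1, MCL1, BIK and BAD). The share of all genes at that looser threshold was not computed. In PM, MCL1 fell with hairpin A and BCL2L1 rose with hairpin B. BAK1 fell with hairpin B in both lines. By single comparison, 3 of 9 members passed with hairpin A in PE (20.2% of all genes), 4 with hairpin B in PE (26.8%), 2 with hairpin A in PM (27.8%) and 3 with hairpin B in PM (28.1%). Libraries of the 2 groups did not overlap for 4, 4, 3 and 2 of 9 members in the same order, against 21.2%, 25.2%, 29.1% and 28.9% of all genes. Between the hairpins this was so for 3 members in PE (20.6% of all genes) and 5 in PM (26.2%). The family as a whole was not tested, and nothing is read from these counts. The median log2 change of the 9 members was -0.26, -0.38, -0.15 and -0.08 in the same order, where that of all tested genes lay between -0.01 and 0.01. The comparisons with hairpins A and B in a line use the same GFP libraries.

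**Figure D2:**
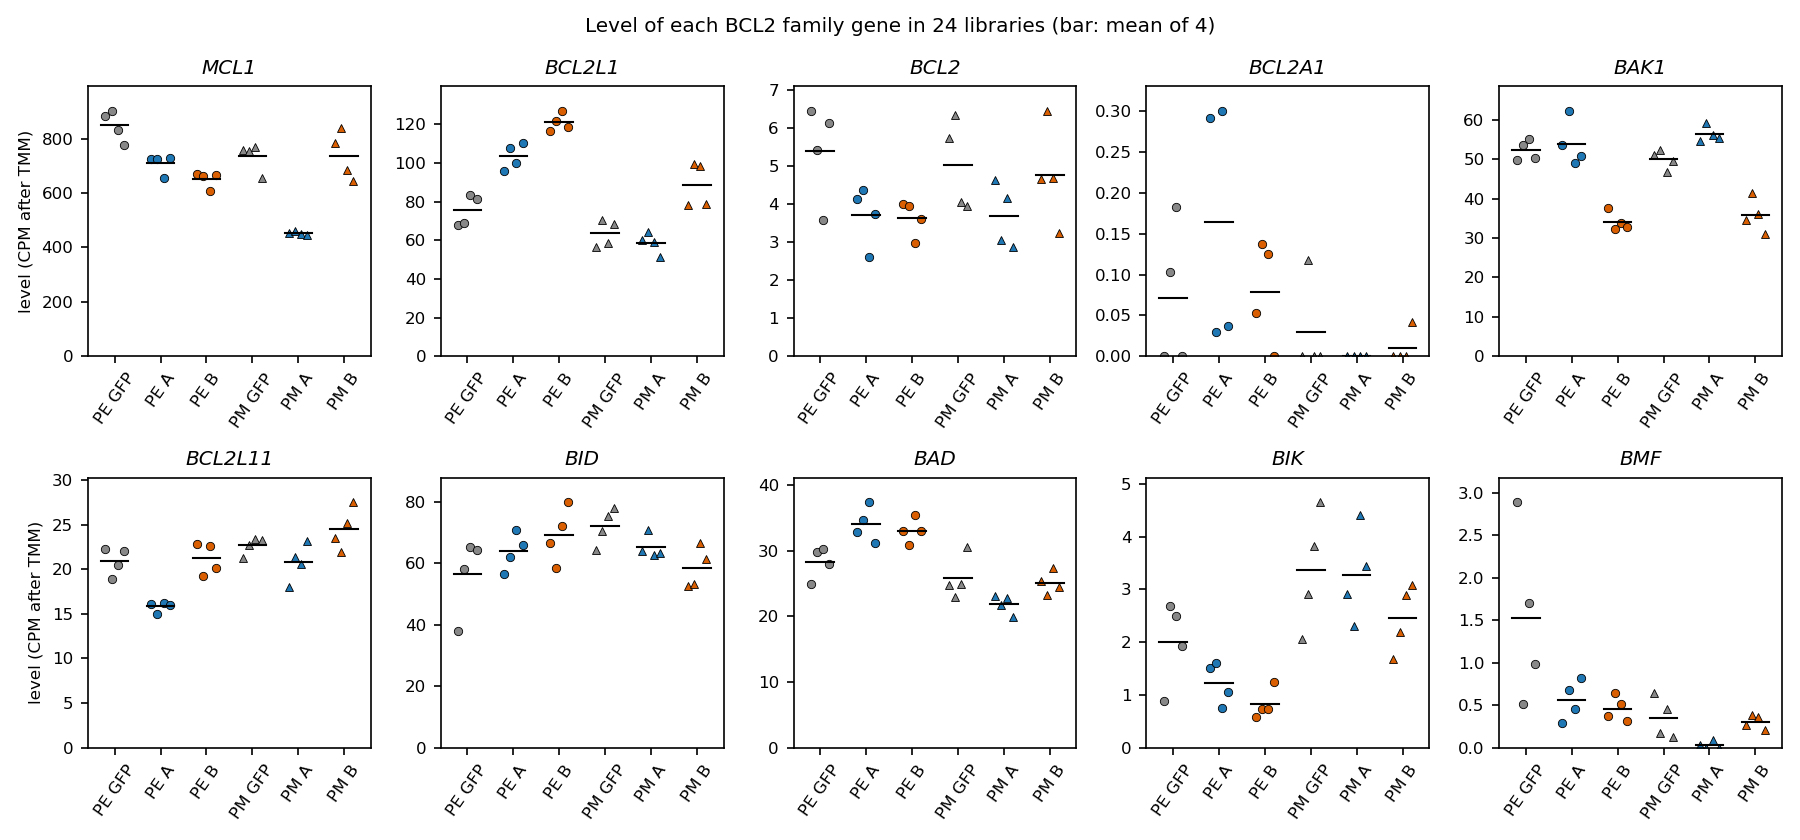
Level of each member in CPM after TMM scaling (linear axes from 0, a separate scale for each gene) in the 24 libraries, with 1 point per library and a bar at the mean of 4. BCL2L1 in PE lies at 68.1 to 83.4 CPM with the GFP hairpin and at 96.0 CPM or above with either CHD1 hairpin, while MCL1 in PM is at 444 to 462 CPM with hairpin A and at 644 CPM or above in the other PM libraries.

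MCL1 (chr1:150574551-150579738, minus strand, 3 merged exons) encodes a short-lived survival protein. In PE its level in replicates 1 to 4 was 883, 903, 831 and 777 CPM with the GFP hairpin. With hairpin A it was 726, 726, 654 and 731 CPM, and with hairpin B it was 669, 662, 608 and 667 CPM. Every PE library with a CHD1 hairpin lay below every PE control library. In PM the control libraries held 759.8, 755, 769.6 and 655 CPM. With hairpin A the PM libraries held 454, 462, 449 and 444 CPM, all below the controls and within a narrow range. With hairpin B they held 785, 839, 684 and 644 CPM, which spread to both sides of the control range. The log2 change was -0.26 (SE 0.07, adjusted p = 0.0055) with hairpin A and -0.38 (SE 0.07, adjusted p = 4.4e-05) with hairpin B in PE. In PM it was -0.70 (SE 0.07, adjusted p = 7.97e-10) with hairpin A and 0.01 (95% interval -0.13 to 0.14, adjusted p = 0.966) with hairpin B. Another annotated gene covers 0.0458% of the exon bases of MCL1.

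BCL2L1 (chr20:31664452-31723989, minus strand, 4 merged exons) encodes the survival protein BCL-XL and, by another splice site, a short form that promotes death. Counts per gene do not separate these forms. Its level in PE was 68.1, 69.1, 83.4 and 81.2 CPM with the GFP hairpin. Hairpin A libraries held 96.0, 107.8, 99.9 and 110.4 CPM, and hairpin B libraries held 116, 122, 127 and 119 CPM. The 3 PE groups did not overlap one another. In PM the controls held 56.6, 70.6, 58.5 and 68.5 CPM. PM libraries with hairpin A held 60.04, 64.0, 58.9 and 51.4 CPM, within and just below the control range. PM libraries with hairpin B held 78.2, 99.6, 98.3 and 78.6 CPM, all above the controls. BCL2L1 rose in PE by 0.45 (log2) with hairpin A (SE 0.09, adjusted p = 0.000279) and by 0.67 with hairpin B (SE 0.09, adjusted p = 3.04e-07), or 1.36-fold and 1.59-fold. It rose by 0.48 with hairpin B in PM (SE 0.09, adjusted p = 5.41e-05), and the change with hairpin A there was -0.12 (95% interval -0.29 to 0.06, adjusted p = 0.371). The antisense gene ABALON covers 43% of the exon bases of BCL2L1. No source used here gives the strand setting of the counting, so reads of this pair could be shared or left out. ABALON averaged 0.96 to 2.27 CPM by group, far below BCL2L1, which does not show how many reads BCL2L1 lost. Such a loss would lower the CPM per kb of BCL2L1, and it was not tested.

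BCL2 (chr18:63123346-63320128, minus strand), the founding survival gene of the family, was low in these cells. In PE it stood at 6.45, 5.42, 3.58 and 6.14 CPM with the GFP hairpin. Its PE levels were 4.12, 4.37, 2.62 and 3.73 CPM with hairpin A and 4.01, 3.94, 2.98 and 3.61 CPM with hairpin B. Replicate 3 was the lowest in each of these groups, and the ranges overlapped. Log2 changes of -0.50 (adjusted p = 0.148) and -0.54 (adjusted p = 0.0962) did not pass the test. In PM the group means were 5.01 ± 1.20, 3.67 ± 0.85 and 4.75 ± 1.31 CPM, and neither hairpin passed (-0.44, adjusted p = 0.169, and -0.08, adjusted p = 0.861).

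BCL2A1 (chr15:79960889-79971446, minus strand), a survival gene best known from blood cells, was at the edge of detection. The 4 libraries of a group together held 14, 28 and 15 counts in PE with the GFP hairpin, hairpin A and hairpin B. In PM they held 6, 0 and 2 counts. The 6 counts of the PM controls all came from replicate 2. In the PM libraries with hairpin A, where none was counted, 3 counts would have been 0.0323 to 0.0983 CPM, which is the limit of these libraries for counting error alone. No fold is given for such counts.

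BAK1 (chr6:33572547-33580293, minus strand), the pore-forming gene among the members, separated the hairpins in both lines. Its PE level was 49.8, 53.6, 55.2 and 50.4 CPM with the GFP hairpin and 53.5, 62.4, 49.0 and 50.9 CPM with hairpin A. With hairpin B in PE it was 37.6, 32.2, 33.8 and 32.7 CPM. Those 4 libraries lay below all libraries of the other PE groups. The PM controls held 51.0, 52.5, 46.8 and 49.6 CPM, and PM libraries with hairpin A held 54.6, 59.2, 56.1 and 55.5 CPM. With hairpin B in PM the level was 34.7, 41.4, 36.02 and 31.01 CPM, again below all others of the line. BAK1 fell with hairpin B by 0.62 (log2) in PE (SE 0.08, adjusted p = 4.26e-07) and by 0.48 in PM (SE 0.08, adjusted p = 1.87e-05). With hairpin A the change was 0.04 (95% interval -0.12 to 0.20, adjusted p = 0.809) in PE and 0.17 (0.01 to 0.33, adjusted p = 0.114) in PM. Reads could be shared with the near-copy BAK1P1, a pseudogene that averaged 2.52 to 4.09 CPM by group and did not pass in any of these comparisons (adjusted p of 0.164 to 0.956). BAK1P1 changed by -0.57 (SE 0.29) in PE and -0.46 (SE 0.29) in PM with hairpin B, close to the changes of BAK1. With hairpin A it changed by -0.08 and 0.03. Whether reads were shared was not tested.

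Among the BH3-only genes, BCL2L11 (chr2:111119378-111168447, plus strand) encodes BIM, which binds all the survival proteins. In PE it stood at 22.3, 18.9, 20.5 and 22.1 CPM with the GFP hairpin and at 16.1, 15.0, 16.2 and 16.0 CPM with hairpin A. With hairpin B the PE libraries held 22.8, 19.2, 22.6 and 20.1 CPM. Hairpin A libraries were tight and lay below both other PE groups. BCL2L11 fell by 0.40 (log2) with hairpin A in PE (SE 0.10, adjusted p = 0.00309). It did not pass with hairpin B in PE (0.03, adjusted p = 0.893) or in PM with hairpin A (-0.13, adjusted p = 0.372) or hairpin B (0.11, adjusted p = 0.424), where group means were 22.7 ± 0.976, 20.8 ± 2.15 and 24.5 ± 2.37 CPM. The opposite-strand gene MIR4435-2HG covers 10.9% of its exon bases, averaged 32.7 to 45.0 CPM by group, and rose by 0.26 with hairpin A in PE (adjusted p = 0.011), where BCL2L11 fell. Where BCL2L11 did not pass, MIR4435-2HG rose with hairpin B in PE (0.20, adjusted p = 0.04). It fell in PM with hairpin A (-0.42, adjusted p = 2.86e-05) and hairpin B (-0.34, adjusted p = 0.000348).

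BIK (chr22:43110748-43129712, plus strand), a BH3-only gene whose protein sits mainly at the endoplasmic reticulum, was read at a few CPM. In PE it stood at 0.890, 2.68, 2.50 and 1.93 CPM with the GFP hairpin, and the shallow first replicate was the low one. With hairpin A it was 1.52, 1.61, 0.752 and 1.05 CPM, and with hairpin B it was 0.580, 0.733, 0.741 and 1.24 CPM. BIK fell by 1.34 (log2) with hairpin B in PE (SE 0.34, adjusted p = 0.00262), although the libraries of the groups overlapped. Its change with hairpin A in PE was -0.79 (adjusted p = 0.0976), and without that first control library it was -0.93 (adjusted p = 0.047), so that BIK then passed under both hairpins. In PM the means were 3.36 ± 1.12, 3.27 ± 0.890 and 2.46 ± 0.650 CPM, and neither hairpin passed (adjusted p of 0.952 and 0.322).

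BMF (chr15:40087890-40108892, minus strand), whose protein is held on the cytoskeleton by a dynein light chain and is known for death after loss of attachment, rested on few counts. The 4 libraries of a group held 185, 97 and 92 counts in PE with the GFP hairpin, hairpin A and hairpin B, and 70, 9 and 70 in PM. In PM with hairpin A, 2 libraries were at 0 and 1 library, replicate 3, held 8 of the 9 counts. BMF fell by 3.11 (log2) with hairpin A in PM (SE 0.80, adjusted p = 0.00291). Without that replicate the change was -4.78, a fitted value set by a single count. In PE its changes of -1.37 (adjusted p = 0.169) and -1.66 (adjusted p = 0.0715) did not pass, and control libraries ran from 0.516 to 2.89 CPM. The change with hairpin B in PE passed by DESeq2's Wald test (adjusted p = 0.0253) and by limma-voom (0.0146). It also passed in a fit of the compared groups alone (0.0405) and without PE control 2 (0.0446). With hairpin B in PM the change was -0.18 (95% interval -1.50 to 1.15, adjusted p = 0.896).

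BID (chr22:17734138-17774770, minus strand), which caspase-8 cuts to carry death receptor signals to mitochondria, ran from 37.8 to 79.9 CPM over all libraries. In PM it stood at 64.2, 70.4, 75.4 and 78.1 CPM with the GFP hairpin, at 64.0, 70.8, 62.6 and 63.4 CPM with hairpin A and at 52.5, 53.2, 66.5 and 61.4 CPM with hairpin B. The hairpin B and control ranges overlapped. BID was 0.30 lower (log2) with hairpin B in PM (SE 0.11, adjusted p = 0.0484), a call that ended with DESeq2 size factors (adjusted p = 0.0596) and with library sizes alone (0.0604). It also ended without any 1 of 6 single libraries (0.0615 to 0.149), which were PM replicates 1, 2 and 4 with hairpin B and PM controls 2, 3 and 4. In PE its changes of 0.14 (adjusted p = 0.463) and 0.26 (adjusted p = 0.103) did not pass.

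BAD (chr11:64269830-64284704, minus strand), which survival kinases phosphorylate so that 14-3-3 proteins hold it in the cytosol, was higher in PE and lower in PM with hairpin A without passing in either line. In PE it stood at 24.9, 29.7, 30.3 and 28.01 CPM with the GFP hairpin, at 32.9, 34.7, 37.4 and 31.1 CPM with hairpin A and at 32.97, 30.8, 35.4 and 32.9 CPM with hairpin B. Neither hairpin's libraries overlapped the controls. In PM it stood at 24.8, 23.0, 24.8 and 30.6 CPM in the controls and at 23.1, 21.7, 22.8 and 19.9 CPM with hairpin A. Changes in PE were 0.25 (adjusted p = 0.0519) with hairpin A and 0.21 (adjusted p = 0.0935) with hairpin B. In PM they were -0.24 (adjusted p = 0.0504) and -0.04 (adjusted p = 0.82). The hairpin A values lay close to the threshold. The one in PE passed without hairpin A replicate 4 (adjusted p = 0.0444), and the one in PM with library sizes alone (0.0419), with a filter of 5 CPM in 4 libraries (0.0275) and without control 2 (0.0284). Both passed with a replicate block (0.0361 in PE and 0.0353 in PM), an alternative because no label states that the libraries are paired. GPR137, on the opposite strand, covers 23.7% of the exon bases of BAD and averaged 16.9 to 24.3 CPM, and GPR137 rose with hairpin B in PM (0.43, adjusted p = 0.00275).

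**Figure D3:**
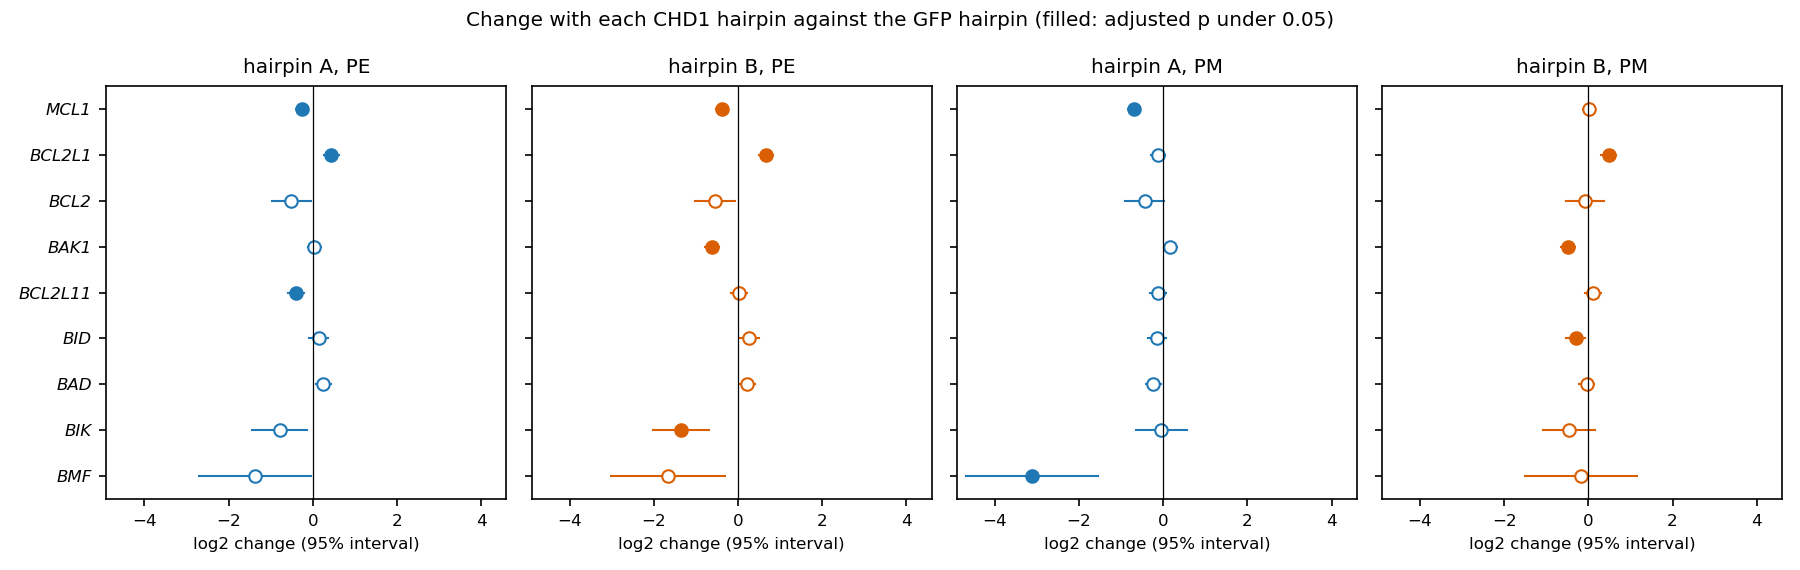
Log2 change of the 9 tested members with hairpin A or B compared with the GFP hairpin of its line, with 95% intervals; filled points passed at an adjusted p under 0.05. MCL1 and BCL2L1 are filled on opposite sides of 0 in both PE panels, and in PM MCL1 is filled with hairpin A and BCL2L1 with hairpin B.

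Between the CHD1 hairpins, BAK1 differed in both lines. It was 0.66 lower (log2) with hairpin B in PE (SE 0.08, adjusted p = 2.61e-07) and 0.66 lower in PM (SE 0.08, adjusted p = 1.34e-07). In PM, hairpin B libraries held more MCL1 than hairpin A libraries (0.71, SE 0.07, adjusted p = 8.38e-10), more BCL2L1 (0.60, SE 0.09, adjusted p = 2.5e-06) and more BMF (2.94, SE 0.80, adjusted p = 0.00532). Without replicate 3 of hairpin A the BMF difference was 4.61. In PE they held more BCL2L11 (0.42, SE 0.10, adjusted p = 0.00152). MCL1 in PE did not pass between the hairpins (-0.12, 95% interval -0.26 to 0.01, adjusted p = 0.246). BCL2L1 in PE missed the threshold (0.22, 0.05 to 0.39, adjusted p = 0.074), although its libraries did not overlap. It passed by DESeq2's Wald test (0.0487), by limma-voom (0.0402), with no filter (0.0362) and with the filter of 5 CPM in 4 libraries (0.0254). It also passed with library sizes alone (0.0264), the compared groups alone (0.0171), a replicate block (0.031) and without the 3 libraries that stand apart (0.0473). With DESeq2 size factors or any single library left out it did not pass. In all, 2 of 9 members passed in PE (16.6% of all genes) and 4 in PM (26.3%). MYC in PM was 0.52 lower with hairpin B than with hairpin A (adjusted p = 3.75e-08), and its part in these differences was not tested.

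The effects of the hairpins were also compared between the lines. The signed log2 change with hairpin A was lower in PM than in PE for BCL2L1 by 0.56 (SE 0.12, adjusted p = 0.00361), for BAD by 0.49 (SE 0.13, adjusted p = 0.0172) and for MCL1 by 0.44 (SE 0.10, adjusted p = 0.00315). These were 3 of 9 members, where 6.66% of all genes passed. The changes in PE and PM were 0.45 and -0.12 for BCL2L1, 0.25 and -0.24 for BAD, and -0.26 and -0.70 for MCL1. The fall of MCL1 with hairpin A was thus larger in PM. With hairpin B, MCL1 changed by -0.38 in PE and by 0.01 in PM. That difference had the opposite sign, 0.39 higher in PM than in PE (SE 0.10, adjusted p = 0.0177), and was 1 of 9 members against 2.45% of all genes. That call ended without PE control 2 (adjusted p = 0.06) or without PM replicate 1 (0.0576) or 2 (0.0542) with hairpin B. The call for BAD ended without PE replicate 3 with hairpin A (0.0612) or PM control 4 (0.0729). BAK1, which fell with hairpin B in both lines, did not pass between them (0.14, 95% interval -0.09 to 0.37, adjusted p = 0.728). BID missed the threshold for hairpin B (-0.57, SE 0.16, adjusted p = 0.0659).

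**Figure D4:**
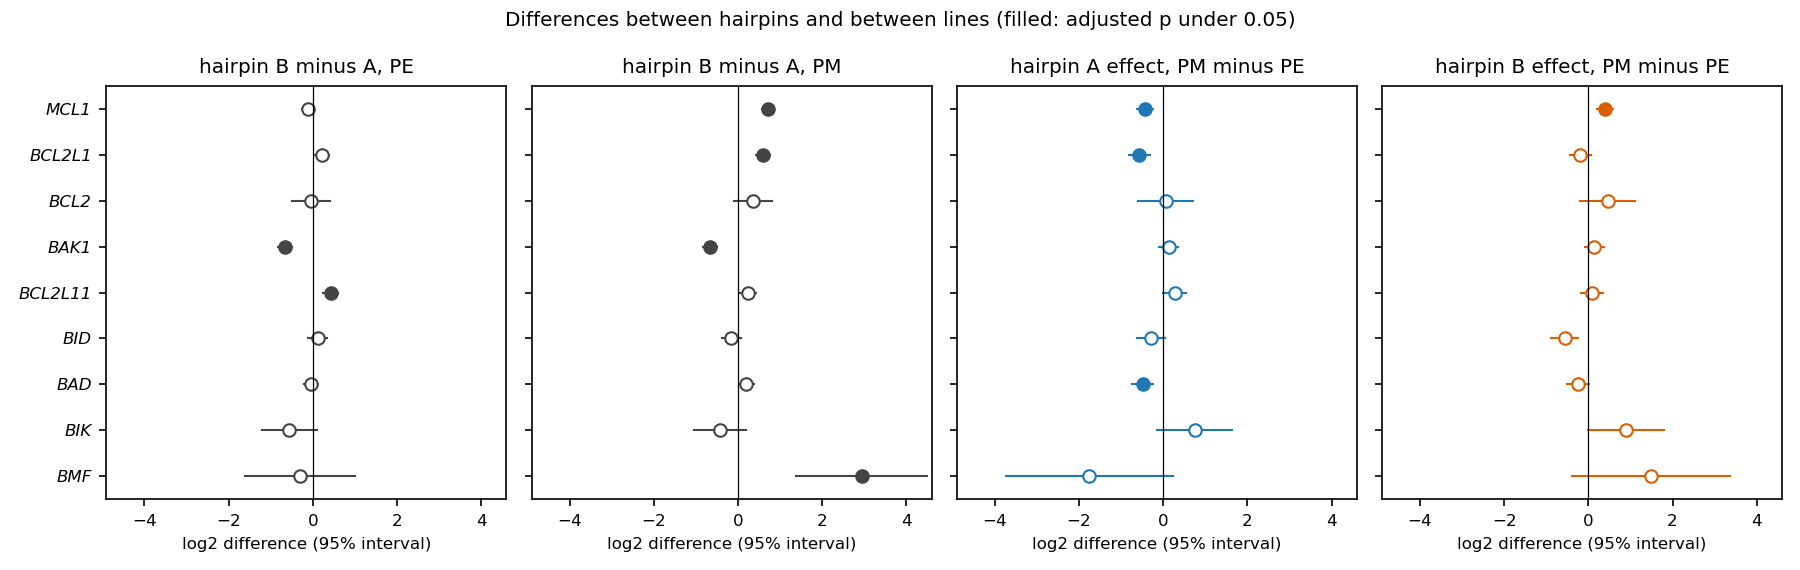
Log2 differences of the 9 tested members with 95% intervals: hairpin B minus hairpin A in each line (left pair) and the effect of each hairpin in PM minus that in PE (right pair); filled points passed at an adjusted p under 0.05. BAK1 lies at -0.66 in both panels of the left pair, and MCL1 lies on opposite sides of 0 in the right pair.

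With the GFP hairpin, 4 of 9 members passed between PM and PE (25.5% of all genes). BMF was 2.06 lower on the log2 scale in PM (SE 0.70, adjusted p = 0.0259), BCL2L1 0.26 lower (SE 0.09, adjusted p = 0.0289) and MCL1 0.21 lower (SE 0.07, adjusted p = 0.0219). BID was 0.32 higher (SE 0.12, adjusted p = 0.0459). Of these, MCL1 alone had libraries that did not overlap, where 24.9% of all tested genes did not. Each of the 4 calls ended when some single control library was left out. For MCL1 these were PE control 2 (adjusted p = 0.0918) and PM control 4 (0.0567), and for BCL2L1 PE control 3 or 4 (0.142, 0.106) or PM control 1 or 3 (0.0768, 0.0612). For BMF they were PE control 1 or 3 (0.0903, 0.0787) or PM control 2 or 4 (0.0843, 0.0806). The BID difference was 0.18 (adjusted p = 0.174) without the shallow PE control 1, and also lost its call without PE control 2 (0.0812) or PM control 2, 3 or 4 (0.0888 to 0.151), with DESeq2 size factors (0.0694), by limma-voom (0.0867) and in a fit of the GFP groups alone (0.101).

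The family genes that are known targets of p53 share these groups. BBC3, which encodes the BH3-only protein PUMA, fell by 1.08 (log2) with hairpin A in PE (SE 0.17, adjusted p = 1.62e-05) and rose by 0.83 with hairpin B in PM (SE 0.16, adjusted p = 0.000127), and the effect of hairpin A was 1.49 higher in PM (adjusted p = 8.95e-05). Its other changes were 0.36 with hairpin B in PE (adjusted p = 0.121) and 0.41 with hairpin A in PM (adjusted p = 0.0568). PMAIP1, which encodes NOXA, a binder of MCL1, fell with hairpin B by 0.61 in PE (adjusted p = 0.00575) and 0.62 in PM (adjusted p = 0.00344). The pore former BAX rose with hairpin B by 0.26 in PE (adjusted p = 0.0339) and 0.27 in PM (adjusted p = 0.0242), where BAK1 fell. With hairpin A, PMAIP1 (-0.13 in PE, -0.05 in PM) and BAX (-0.09 and 0.23) did not pass.

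Of 8 further family genes, 6 could be tested, and 3 passed under both hairpins in PE and 2 in PM, where 12.3% and 13.3% of all tested genes did. BOK, a relative of the pore formers, fell with a mean log2 change of -0.64 in PE and -0.84 in PM, and BCL2L12 fell by 0.57 and 0.51. BCL2L13, an outer membrane protein, rose in PE (0.38). Over this list the median of the mean changes was -0.60 in PE and -0.12 in PM, where those of all genes lay within 0.01 of 0.

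Downstream of the family, 5 of 17 genes of the mitochondrial apoptosis machinery passed under both hairpins in PE, 1 higher and 4 lower, and 4 of 17 in PM, 1 higher and 3 lower (12.3% and 13.3% of all genes). XIAP, a caspase inhibitor, fell in PE (-0.35) and PM (-0.59), as did BIRC5, which encodes survivin (-0.33 and -0.43). BIRC3 fell in PE (-1.17). VDAC3, an outer membrane channel, rose in both lines (0.37 and 0.46). The list medians were 0.04 and -0.09.

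Upstream of BID, 3 of 11 genes of the death receptor route passed under both hairpins in PE and 2 in PM (12.3% and 13.3% of all genes). TRADD, an adaptor of the TNF receptor, rose in both lines (0.63 and 0.47), TNFRSF1A rose in PE (0.46), FAS rose in PM (0.64) and TNFRSF10A, a TRAIL receptor, fell in PE (-0.53). The list medians were 0.09 in PE and -0.09 in PM. Among 22 partners and modifiers of the members' proteins, 3 passed in PE (1 higher, 2 lower) and 5 in PM (1 higher, 4 lower), beside the same 12.3% and 13.3% of all genes. RPS6KB1, a kinase known to phosphorylate BAD, rose in both lines (0.34 and 0.48), while the 14-3-3 gene YWHAH fell in both (-0.38 and -0.33). DYNLL2, the dynein light chain that holds BMF, fell in PE (-0.28) and PM (-0.29), and BTRC (-0.45) and PIM3, a kinase of BAD (-0.33), fell in PM. The medians of that list were -0.05 and -0.07.

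Of 13 transcription factors known to act on members, 4 passed under both hairpins in PE (1 higher, 3 lower; 12.3% of all genes) and 3 in PM (1 higher, 2 lower; 13.3%). STAT3, an activator of BCL2L1 and MCL1, rose by 0.99 in PE and 0.80 in PM. STAT5A (-0.90) and NFKB2 (-0.57) fell in PE, RELB fell in both lines (-0.45 and -0.61) and STAT5B fell in PM (-0.28). The medians over the list were -0.16 and -0.30.

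Over the 24 libraries, the genes most like each member were found by Pearson correlation of log2(CPM + 1) among 11048 or 11049 genes averaging 5 CPM or more. All these points share the same libraries, depths and 6 groups, so the values are a description. BCL2L1 was most like ERBB2 and PARVA (r = 0.935 for each), BAK1 like PNRC2 (0.928), and BAD like RALB (0.928) and TBC1D10A (0.923). MCL1 was most like SLC38A2 (0.904) and TNFAIP8L3 (0.901), and BIK like STK26 (0.895) and NT5DC2 (0.88). Lower values were found for BCL2L11 with F11R (0.856) and RMND5A (0.853), BMF with ATF2 and SERPINB1 (0.841 for each), BID with ANAPC11 (0.833) and PSMD4 (0.813), and BCL2 with SDC1 (0.759) and CCDC77 (0.756). Ranked by Spearman correlation instead, another gene came first for each member: DKK1 for BCL2L1, KLC2 for BAK1, UBA7 for BAD and EPGN for MCL1, among others.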

How the data were processed

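RNA was measured in 24 libraries, 4 in each of 6 groups of line and hairpin, grouped by the labels. Per the submitters' processing notes, the authors used FastQC, Trim Galore 0.4.0, HISAT2 2.2.1 on GRCh38 and featureCounts to make the deposited counts, which are whole numbers per gene without scaling. The annotation, the strand setting and the handling of reads with several matches are not stated in any source used here.

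From these counts, 20820 of 59251 genes passed edgeR's filterByExpr (edgeR 4.0.16, R 4.3.3), and 17236 genes had no count. A quasi-likelihood model of all 24 libraries had 1 mean for each group, TMM scaling and robust dispersion (median biological coefficient of variation 18.96%). Two-sided p-values received the Benjamini-Hochberg adjustment over all tested genes per contrast, and the threshold was 0.05. Each SE is the size of the log2 change over the square root of F. Intervals called 95%, in the text and the figures, reach 1.96 SE to each side, a normal approximation. This quantile takes no account of the finite degrees of freedom of the test, so the intervals are narrower than the test implies. An interval clear of 0 is therefore not a call, as for BMF with hairpin A in PE (-2.70 to -0.03). A gene counts under both hairpins if it passed with A and with B and had 1 sign. CPM per kb uses merged exon length in GENCODE release 29, whose transcripts also gave the coding sequences. The code was tested on simulated data. No 2 replicates agreed within sampling noise (chi-square per degree of freedom 5.83 or more). Libraries were not treated as paired by replicate number.

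The members and lists were chosen with earlier results of these data known. Named were all members, CHD1, MYC, the p53 targets BBC3, PMAIP1 and BAX, up to 4 genes of each list and line with the largest mean change under both hairpins, and the 2 genes most like each member. Overlapping genes and the marker genes at 0 were named beside the members they bear on. Alternatives were other scalings (DESeq2 1.42.0 size factors, library sizes alone), DESeq2's Wald test, limma-voom (limma 3.58.1), other filters, a replicate block, the compared groups alone, each library left out, and 3 libraries left out together. A few genes that these rules select are not reported here.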

Additional observations from a re-analysis of the deposited data

Results flagged for a closer look

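In 5 of 59 groups of 4 libraries, 1 library lay farther from the others than Dixon's 95% limit allows. For normally spread values chance flags about 1 in 20 groups, a rate that does not hold for genes with libraries at 0. For MCL1 the gap divided by the range was 0.935 in PE with hairpin A (replicate 3, 654 CPM), 0.891 in PE with hairpin B (replicate 3, 608 CPM) and 0.872 in PM with the GFP hairpin (replicate 4, 655 CPM), each the lowest of its group. For BCL2A1 it was 1 in PM with the GFP hairpin (replicate 2, 0.117 CPM) and 1 in PM with hairpin B (replicate 4, 0.0417 CPM). The other libraries of these groups were at 0, which sets the value at 1 whatever the count, so these flags carry no weight. The effect of a hairpin differed between PM and PE by an interaction test for BCL2L1 (hairpin A, -0.562, adjusted p = 0.00361), MCL1 (hairpin A, -0.442, adjusted p = 0.00315, and hairpin B, 0.387, adjusted p = 0.0177) and BAD (hairpin A, -0.488, adjusted p = 0.0172), with both lines' values given above.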

How the results depend on the processing

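No called change or difference took another sign under an alternative. Of the 55 that did not pass, 11 did so under at least 1 alternative, and none of these sign changes passed. They were BAD with hairpin B in PM and between the hairpins in PE, BAK1 with hairpin A in PE, BCL2 with hairpin B in PM, between the hairpins in PE, between the lines with the GFP hairpin and in the effect of hairpin A, BCL2L11 with hairpin B in PE, BIK with hairpin A in PM, and BMF and MCL1 with hairpin B in PM. The called results numbered 28, with the calls of MCL1 and BCL2L1 under both hairpins in PE counted beside their single-hairpin calls. Of these 28, 21 stayed past the threshold under every alternative that gave a value. Among them were the MCL1, BCL2L1, BAK1, BCL2L11 and BIK changes against the GFP hairpin. The 7 others are named in the report with the libraries that end them. The number of members that differed between the lines in the effect of hairpin B was 1 and became 2 with DESeq2's Wald test, limma-voom, no filter, the filter of 5 CPM in 4 libraries and the replicate block, and 2 without the 3 libraries that stand apart, because BID then passed (adjusted p of 0.000171 to 0.048). With single libraries left out it ran from 0 to 2. The number that differed between PM and PE with the GFP hairpin was 4, was 2 without the 3 libraries, and ran from 2 to 3 with single libraries left out (without PM control 4, BAD passed beside BCL2L1, adjusted p = 0.041). The filter of 5 CPM left no value for BMF and BIK. The replicate block ended no call and added 7, for BAD with hairpin A in PE (adjusted p = 0.0361) and PM (0.0353), BCL2 (0.05, rounded) and BID (0.0132) with hairpin B in PE, BID between the lines for hairpin B (0.00172), and BCL2L1 in PE (0.031) and BCL2L11 in PM (0.043) between the hairpins. Other alternatives added calls too. Between the hairpins in PM, BCL2L11 passed with DESeq2 size factors (0.049), library sizes alone (0.0181) and the filter of 5 CPM (0.0162). It also passed by DESeq2's Wald test (0.0358), by limma-voom (0.0269) and without the 3 libraries that stand apart (0.0451). BAD there passed with library sizes alone (0.0358) and the filter of 5 CPM (0.0318). BAK1 with hairpin A in PM passed in a fit of the compared groups alone (0.0464). Deviations of same-numbered libraries correlated at over 0.1 in 55 of 60 pairs (median 0.262, against -0.11 for other numbers). In all, 22 of 24 libraries correlated best with their own number. The numbers after S in the column headers also run in blocks by replicate number, and what they stand for is not stated. Replicates of 1 number may thus share a batch, which the main tests leave out. With no filter, the median of all genes shifted by 0.111 for hairpin B in PM and by 0.120 between the hairpins there. Depth limits BCL2A1 and BMF, and the smallest library, with 4.14 M counts, limits PE controls.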
